A study of Saccharomyces cerevisiae and Saccharomyces cerevisiae x Saccharomyces paradoxus and Saccharomyces cerevisiae x Saccharomyces mikatae with 18 samples.

Results

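Mitochondrial ribosomal proteins are the proteins, encoded in the nucleus, of the ribosome that translates the few messages of the mitochondrial genome. The genes were chosen by a list of 58 open reading frames of S. cerevisiae, with earlier results of these data known. The list used no threshold on a measured value, and 55 of the 58 were listed among the 4730 genes of every deposited table. MRPL16, MRPL44 and MRPL49 were not analysed here. Of the 55 genes, 32 encode proteins of the large subunit and 23 proteins of the small subunit, and their symbols matched RefSeq's annotation of S. cerevisiae S288C, build R64. By the names given to ribosomal protein families, 33 have a bacterial homologue and 22 were grouped as mitochondrial. RSM22, which was given no such family name, was counted among the 22.

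The study compared S. cerevisiae with S. paradoxus, S. mikatae and S. bayanus by sequencing the polyadenylated ends of transcripts, in diploids of each species (homozygotes) and in diploid hybrids of S. cerevisiae with each of the others. S. cerevisiae had 6 libraries, of which 2 went with each pair of species, and every other species and every hybrid had 2. The S. cerevisiae homozygote was YHL068, a cross of BY4741 and BY4716, and the others were CBS 432 (S. paradoxus), IFO 1815 (S. mikatae) and CBS 7001 (S. bayanus). The hybrids were YYM014, YYM030 and YYM015, crosses of BY4716 with OZY361 (S. paradoxus), JRY9175 (S. mikatae) and JRY9191 (S. bayanus). Each group was thus a single strain, and a difference between species cannot be told apart from a difference between these strains. All cultures grew at 25°C in YPD, a rich glucose medium, to log phase at an optical density of 0.65 to 0.75, and the libraries of a group are described as biological replicates. In a hybrid, reads were assigned to 1 of the 2 alleles of a gene, and so both alleles were measured in the same library.

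The mitochondrial ribosome makes the core subunits of the respiratory chain and of the ATP synthase, and its proteins are made in the cytosol and imported. Yeast in glucose ferments, and transcripts for mitochondrial proteins are then held low. In S. cerevisiae the RNA-binding protein Puf3 binds an element after the coding region of many messages for mitochondrial ribosomal proteins and is known to promote their decay on glucose and their translation when cells turn to respiration.

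The letters of the Puf3 element, TGTA, any base, then ATA, were searched on the sense strand in the 250 bases after each stop codon in the S288C genome. They were present after 54 of the 55 genes (98.2%), against 744 of the 4667 other listed genes (15.9%) and 7 of 106 genes for cytosolic ribosomal proteins (6.6%). The exception was RSM22 (YKL155C). In 50 of the 54 genes the first match started within 100 bases of the stop codon, with a median of 51.5 bases, and 13 genes had more than 1 match. The middle base was A in 30 of the 69 matches, T in 21, C in 17 and G in 1. A match is a description of the S288C sequence, and the genomes of the other species were not used here. The stretch around the first match is shown for 6 genes described below: MRPL27, MRPL33 and MRPS12 differed in more than 1 species, MRPL15 was among the largest differences of S. bayanus homozygotes, and MRPL20 and MRPL31 passed the test between homozygotes and hybrid. MRPL33 has a second match, 165 bases after the stop codon, that is not shown. Capitals mark the motif, with 11 bases on each side.
MRPL27, chrII:768698-768727, plus strand: ttcaatatgcgTGTAAATActagttttcga
MRPL33, chrXIII:842249-842278, plus strand: tgacttatataTGTATATAgtattattttt
MRPS12, chrXIV:694269-694298, minus strand: atacaacctttTGTAAATAgcaatgaccat
MRPL20, chrXI:599049-599078, minus strand: aataacaatcgTGTAAATActactctataa
MRPL31, chrXI:185225-185254, minus strand: aaaatttcatcTGTATATAgtttaatcatt
MRPL15, chrXII:760291-760320, plus strand: aaaaatttatcTGTAAATAgtgatcgaaat

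**Figure D1:**
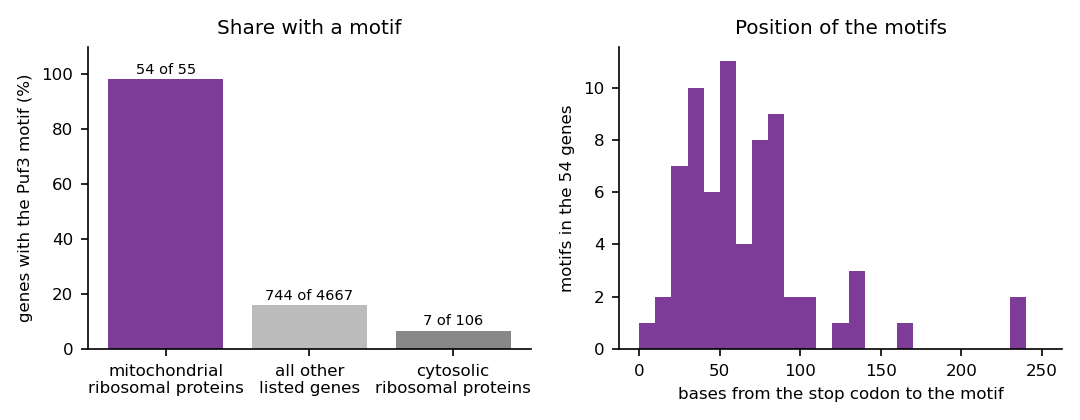
The left panel gives the percent of genes with the Puf3 motif in the 250 bases after the stop codon, for 55 mitochondrial ribosomal protein genes, 4667 other listed genes and 106 cytosolic ribosomal protein genes, and the right panel counts the 69 matches by their distance in bases from the stop codon. The motif follows 54 of the 55 genes, mostly within 100 bases.

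Levels are scaled scores, which are read numbers weighted for GC content by the authors and here divided by the upper quartile of their column and multiplied by 1 constant. One end was sequenced per transcript, so the scores were not divided by length. The deposited totals were between 4760197 and 6883279 per homozygote library and between 2255430 and 3336994 per allele of a hybrid library. No gene of the 55 was at 0 in any of the 24 columns of values. Over the 6 S. cerevisiae homozygote libraries the medians ran from 50.8 for MRPL27 and 66.5 for RSM22 to 717 for MRPL31 and 764 for MRPL8. Replicates of a group correlated over the 55 genes with r between 0.64 and 0.92 on the log2 scale, and none was a copy of another. As a check of the strains, LYS2, deleted in the S. cerevisiae parent of the hybrids, was between 0 and 1.72 for the S. cerevisiae allele of all 6 hybrid libraries and between 112 and 166 in the S. cerevisiae homozygotes.

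The S. cerevisiae homozygote libraries did not all hold these genes at the same level. Relative to each gene's mean over the 24 columns, the median gene was at 0.10 and 0.33 (log2) in the 2 libraries of the S. paradoxus pair, at -0.53 and -0.54 in those of the S. mikatae pair and at -0.54 and -0.59 in those of the S. bayanus pair. In 39 of the 55 genes both libraries of the S. paradoxus pair were above both of the S. bayanus pair, against 34.5% of all genes, and in 39 they were above both of the S. mikatae pair, against 33.6%. Genes of the environmental stress response moved with this difference. The summed level of 9 of them was 2518 and 2193 in the libraries of the S. paradoxus pair and between 609 and 843 in the other 4, and the summed level of 6 genes of the diauxic shift was 515 and 333 against 167 to 347, which overlapped. Cytosolic ribosomal proteins were lower in the libraries of the S. paradoxus pair, by medians of -0.68 against the S. mikatae pair and -0.81 against the S. bayanus pair, with both libraries below in 62 and 70 of 106 genes (25.0% and 24.8% of all genes). Genes of the respiratory complexes had medians of 0.71 and 0.46. The part of growth state in the levels was not tested. Because the reference differs, each comparison of homozygotes is given below also with the other S. cerevisiae libraries.

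**Figure D2:**
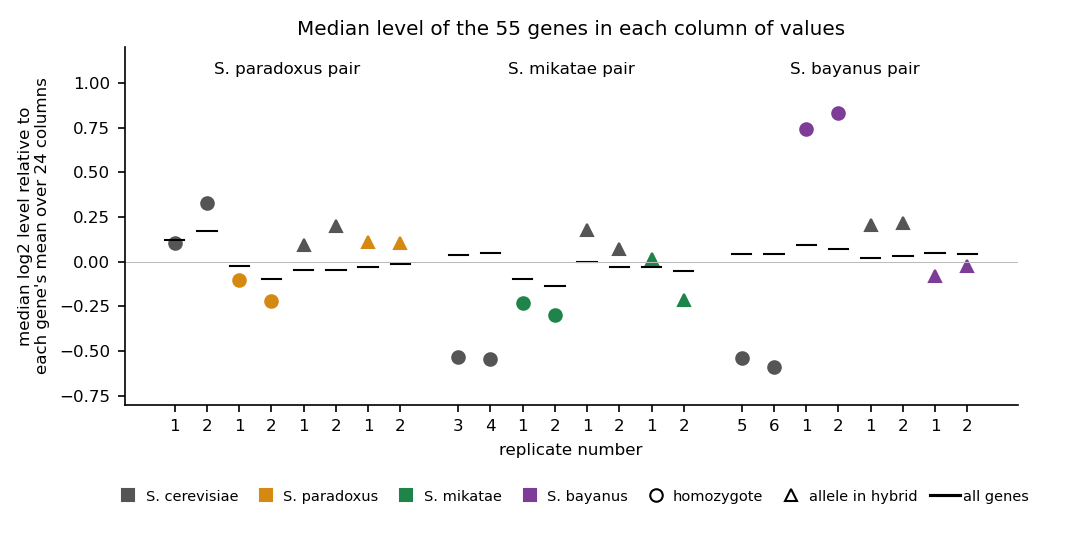
Each point is the median over the 55 genes of the log2 level relative to the gene's own mean over all 24 columns (circles, homozygote libraries; triangles, alleles in hybrid libraries), and each short line is the same median over all genes with a mean scaled score of at least 10. The S. bayanus homozygotes are highest at 0.74 and 0.83, 4 of the 6 S. cerevisiae homozygotes are lowest at -0.53 to -0.59, and the alleles of the hybrids lie between -0.21 and 0.22.

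The strongest difference was in S. bayanus. Of the 55 genes, 34 were higher and 2 lower in the S. bayanus homozygote than in the S. cerevisiae homozygote of the same pair, and 19 did not pass (limma on log2 of scaled score plus 1, Benjamini-Hochberg adjusted p under 0.05 over all 4570 genes tested). Among all genes 34.6% passed, 18.4% higher and 16.2% lower. The median log2 ratio of the 55 genes was 1.26, and that of all genes was 0.02. Both subunits shared in it: 17 of 32 large-subunit genes and 17 of 23 small-subunit genes were higher, with medians of 1.19 and 1.51. Genes with a bacterial homologue (21 of 33 higher, median 1.39) and genes grouped as mitochondrial (13 of 22, median 1.18) were both among them.

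MRPS12 (YNR036C), of the uS12 family that forms part of the decoding centre, was 1146 and 2418 in the 2 S. bayanus libraries and 137 and 112 in the 2 S. cerevisiae libraries. This was the largest ratio, 3.74 ± 0.44 (log2, SE), or 13.3-fold, with an adjusted p of 0.012 by limma. MRPL27 (YBR282W), a large-subunit protein of the mL41 family, was 358 and 829 against 41.1 and 47.5, a ratio of 3.59 ± 0.49. MRPL15 (mL57) was 987 and 843 against 100.4 and 62.9, and MRP13 (mS44), of the small subunit, was 887 and 740.4 against 90.0 and 100.1. In each of these 4 genes the lower S. bayanus library was more than 3 times the higher S. cerevisiae library. MRPL33 (YMR286W, uL30) was 1198 and 1247 against 92.0 and 229, a ratio of 3.06 ± 0.50. MRPL38 (uL14), which lies at the face between the subunits, was 1054 and 1535 against 166 and 144, a ratio of 3.03 ± 0.29. The 2 genes that were lower were MRPS16 (bS16) and RSM7 (uS7), both of the small subunit. MRPS16 was 57.3 and 69.0 against 158 and 169, a ratio of -1.37 ± 0.27, and RSM7 was 294 and 265 against 575 and 639.6, a ratio of -1.12 ± 0.21.

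With the S. cerevisiae libraries of the S. mikatae pair as the reference, 27 of the 55 genes were higher in S. bayanus and 1 lower, with a median ratio of 1.21, where 34.0% of all genes passed. With those of the S. paradoxus pair, where the genes were higher, 20 were higher and 5 lower, with a median of 0.51. With that reference 39.8% of all genes passed, so that the 25 genes are near the share of all genes. With each of the 3 references 17 genes passed as higher, MRPS12, MRPL27, MRPL15, MRP13, MRPL33 and MRPL38 among them, and RSM7 as lower. No gene passed in opposite directions. Without S. cerevisiae replicate 5, 18 of the 55 genes passed (16.4% of all genes), and without S. cerevisiae replicate 6, 14 passed (15.4%). Without either S. bayanus library none of the 55, and none of all genes, passed by limma, while 35 (without replicate 1) and 31 (without replicate 2) had an unadjusted p under 0.05, against 37.5% and 37.8% of all genes.

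**Figure D3:**
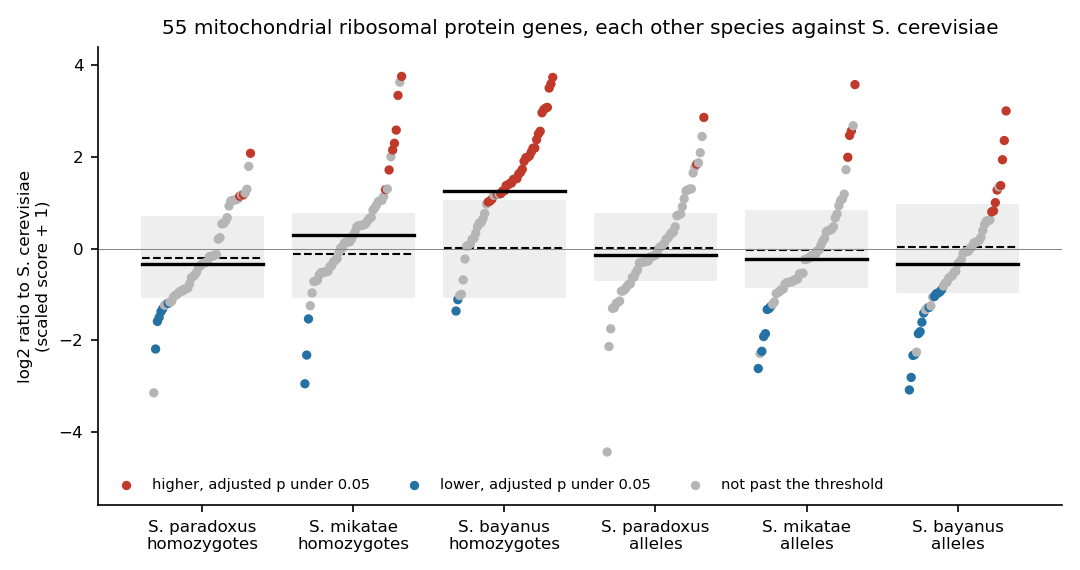
Each point is the log2 ratio of 1 of the 55 genes in the other species against S. cerevisiae, in homozygotes (left 3 groups) and between alleles in hybrids (right 3 groups), ordered by size within a group. Red and blue points passed as higher and lower, grey points did not pass, thick lines are medians of the 55 genes, and dashed lines and grey bands are the median and quartiles of all genes tested. The S. bayanus homozygotes stand at a median of 1.26 and the S. bayanus alleles at -0.33.

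Between the alleles of the S. bayanus hybrid the genes did not lean the same way. The S. bayanus allele was higher in 8 genes and lower in 14, and 33 did not pass, where 35.5% of all 4520 genes passed, 18.3% higher and 17.2% lower. The median log2 ratio was -0.33, against 0.04 over all genes. As both alleles come from the same library, the fit was repeated with the library as a block, and 10 of the 22 calls remained, 4 higher (MRPL7, MRPL27, MRPL33, MRPS12) and 6 lower (MRP7, MRPL6, MRPL31, MRPL39, MRPS16, RSM7), where 23.8% of all genes passed. Leaving out 1 of the 2 hybrid libraries, in a fit over all hybrids that lends the lone library the spread of the others, 4 genes passed without replicate 1 (13.5% of all genes) and 6 without replicate 2 (14.1%), below the shares of all genes.

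Of the 34 genes higher in the S. bayanus homozygote, 7 also had the higher S. bayanus allele: MRPL15, MRPL27, MRPL33, MRPL38, MRP13, MRPS12 and RSM19. MRPS12 was 1347 and 1305 from the S. bayanus allele and 163 and 166 from the S. cerevisiae allele in the same libraries, a ratio of 3.00 ± 0.16. MRPL27 was 295 and 286 against 44.8 and 69.6, and MRPL33 was 613 and 816 against 214 and 158. The alleles did not overlap in any of these genes. RSM19, whose product belongs to the uS19 family and whose gene neighbours MRPS12 on chromosome XIV, was 465 and 516 against 249.8 and 307, a ratio of 0.82 ± 0.20. MRPL15 was 448 and 471 against 233 and 224 (ratio 1.00 ± 0.17), MRPL38 was 524 and 569.8 against 314 and 312 (0.80 ± 0.17), and MRP13 was 509 and 421 against 151 and 240.0 (1.28 ± 0.31). Both genes that were lower in the homozygote were lower from the allele too. MRPS16 was 24.6 and 28.5 against 228 and 237, the largest allele ratio, at -3.09 ± 0.24. RSM7 was 197 and 193 against 583 and 611, a ratio of -1.61 ± 0.17.

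A further 4 genes were higher in the S. bayanus homozygote and lower from the S. bayanus allele: MRP1, MRPL3, MRPL9 and MRPS35. With the library as a block none of these 4 allele calls passed by limma (adjusted p of 0.063, 0.061, 0.058 and 0.063), and neither did those of MRPL15, MRPL38, MRP13 and RSM19. MRPL39 (bL33) and MRPL6 (uL6) had among the lowest allele ratios and no call in homozygotes. MRPL39 was 39.6 and 43.5 from the S. bayanus allele and 336 and 264 from the S. cerevisiae allele, a ratio of -2.81 ± 0.25. MRPL6 was 64.1 and 64.5 against 331 and 318, a ratio of -2.32 ± 0.20. MRP7, the bL27 protein that lies near the peptidyl transferase centre in bacteria, was 154 and 79.5 against 555 and 571, a ratio of -2.33 ± 0.39.

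The ratio of homozygotes and the ratio of alleles were compared in 1 fit with an interaction term. In S. bayanus 9 of the 55 genes passed, all with the higher ratio in homozygotes, where 1.84% of all 4571 genes passed, 1.25% in that direction and 0.591% in the other. The median difference of ratios was 1.79 over the 55 genes and 0.00 over all genes, and the homozygote ratio was above the allele ratio in 53 of 55 genes, against 50.1% of all genes. Of the 9 genes, 7 belong to the large subunit (MRPL3, MRPL9, MRPL15, MRPL20, MRPL24, MRPL31, MRPL38) and 2 to the small subunit (MRP1, MRPS35). With the hybrid library as a block only MRPL20 passed (adjusted p of 0.0497 by limma; 0.853% of all genes), and 4 passed without S. cerevisiae replicate 5 (48 of all genes). None passed by limma without any 1 of the other 5 libraries, where 30 to 38 had an unadjusted p under 0.05, against 13.9% to 17.9% of all genes. With all 6 S. cerevisiae homozygote libraries as the reference 7 genes passed (1.61% of all genes), of which 3 were among the 9. The median difference of ratios was then smaller, at 1.36, against -0.04 over all genes.

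MRPL20 (YKR085C, mL58) was 2071 and 1910 in the S. bayanus homozygotes and 456 and 412 in the S. cerevisiae homozygotes of the pair. In the hybrid its S. bayanus allele was 753 and 828 and its S. cerevisiae allele 807 and 858. The 2 species did not overlap as homozygotes (ratio 2.19 ± 0.20), whereas the allele ratio was -0.08 ± 0.16, and the difference of ratios was 2.27 ± 0.25 (adjusted p of 0.018 by limma). MRPL31 (mL60) was 789 and 1244 against 513 and 373 in homozygotes and 457 and 490.4 against 1732 and 1708 in the hybrid, with ratios of 1.18 ± 0.34, which did not pass, and -1.86 ± 0.15. MRPS35 (mS45) was 617 and 492 against 241 and 244 in homozygotes and 302 and 354 against 1071 and 706 in the hybrid. MRPL9, of the uL3 family, was 638 and 518 against 228 and 175 and, in the hybrid, 343 and 342 against 666 and 656. In MRPL31, MRPS35 and MRPL9, and in MRPL3, MRP1 and MRPL24 below, the species order was opposite in homozygotes and hybrids of this pair. There was no overlap in either. S. cerevisiae homozygotes of the other pairs reached 1134 for MRPL31, 499.6 for MRPS35 and 536 for MRPL24, and so overlapped the S. bayanus homozygotes. MRPL3 (mL44) was 588 and 745 against 301 and 253 and, in the hybrid, 308 and 328 against 558 and 716. MRP1 (mS43) was 1123 and 1134 against 524 and 547 and, in the hybrid, 644 and 629.8 against 1134 and 1535. MRPL24 (bL28) was 471 and 526 against 162 and 182 and, in the hybrid, 336 and 255 against 359 and 379. The same 3 genes had differences of ratios of 2.25 ± 0.33, 2.13 ± 0.29 and 1.86 ± 0.31, in that order.

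Against the homozygotes of the same pair, both species had other levels in the S. bayanus hybrid. The S. cerevisiae allele in the S. bayanus hybrid was above the S. cerevisiae homozygotes of the pair in all 4 columns in 42 of the 55 genes, against 25.2% of all genes, and below them in 2, against 25.9%, with a median log2 difference of 0.85. The S. bayanus allele was below the S. bayanus homozygotes in 49 of the 55 genes, against 29.1% of all genes, and above them in 1, against 26.4%, with a median of -0.81. These are descriptions of scaled levels, each column being scaled to its own upper quartile, and were not tested gene by gene. In the S. mikatae hybrid the S. cerevisiae allele was above its homozygotes in 35 genes, against 23.7%, and below in 2, against 27.7%, with a median of 0.65, and the S. mikatae allele was above in 15 (23.9% of all genes) and below in 9 (17.5%), with a median of 0.12. In the S. paradoxus hybrid the S. cerevisiae allele was above in 16 (24.7%) and below in 18 (36.9%), with a median of -0.03, and the S. paradoxus allele was above in 16 (23.2%) and below in 4 (15.3%), with a median of 0.26. The S. cerevisiae homozygotes of the S. paradoxus pair are those with the higher levels of stress genes. Relative to each gene's mean, their median gene was at 0.104 and 0.328 (log2). For the S. cerevisiae allele in the S. bayanus hybrid it was at 0.205 and 0.219, between these values. The higher level of that allele is thus given only against the homozygotes of its own pair. In the S. bayanus pair the summed stress level was 464 and 744 in the S. bayanus homozygotes, 609 and 615 in the S. cerevisiae homozygotes, 433 and 284 for the S. cerevisiae allele and 550.0 and 370.4 for the S. bayanus allele. The stress genes of S. cerevisiae were thus lower in the hybrid than in the homozygotes, with median relative levels of -1.03 and -1.41 against 0.39 and 0.16 (log2), beside the higher levels of the 42 genes. Their part in it was not tested.

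**Figure D4:**
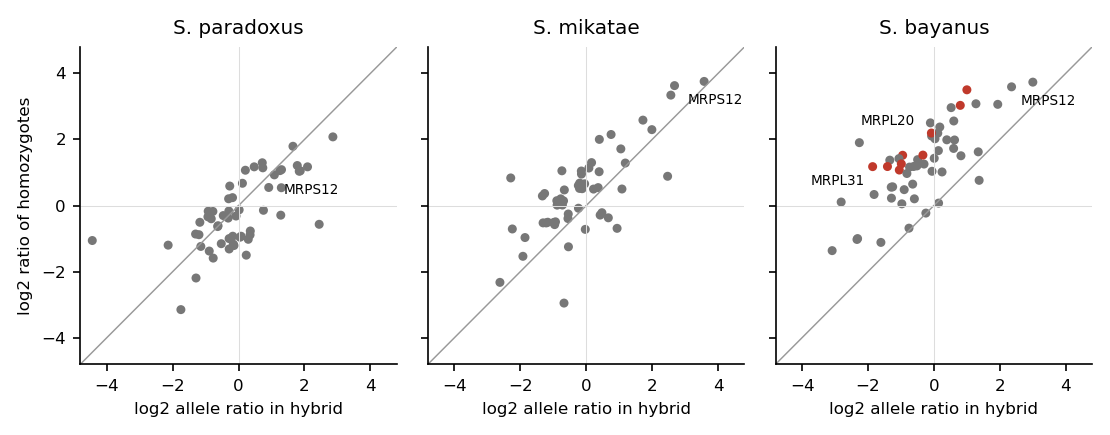
Each point is 1 of the 55 genes, placed by its log2 allele ratio in the hybrid (x axis) and its log2 ratio of homozygotes (y axis), other species against S. cerevisiae, with the line of equal ratios. Points in red passed the interaction test, which in S. bayanus were 9 genes and in S. paradoxus and S. mikatae none. In S. bayanus 53 of the 55 points lie above the line.

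In S. mikatae 7 genes were higher and 3 lower in the homozygote, and 45 did not pass, where 19.7% of all 4558 genes passed, 8.25% higher and 11.5% lower. The median ratio was 0.29, against -0.13 over all genes. Scaling to the total score in place of the upper quartile changed this split to 4 higher and 5 lower (23.1% of all genes) and the median to -0.05, and with the S. cerevisiae libraries of the S. paradoxus pair as the reference it was 5 higher and 9 lower with a median of -0.38, where 30.7% of all genes passed with a median of -0.25. With those of the S. bayanus pair it was 4 higher and 3 lower with a median of 0.44, where 19.3% of all genes passed. MRPS12 and RSM28 passed as higher, and MRPL22, MRPL32 and MRPL50 as lower, with each of the 3 pairs of S. cerevisiae libraries. None of the 55 genes, and none of all genes, passed by limma once any 1 of the 4 libraries was left out, where 12 to 18 had an unadjusted p under 0.05, against 29.3% to 34.4% of all genes.

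MRPS12 was 3112 and 1449 in S. mikatae and 137 and 178 in S. cerevisiae, a ratio of 3.76 ± 0.47, close to that in S. bayanus. MRPL35 (mL38) was 748 and 1715 against 126 and 97.1, a ratio of 3.34 ± 0.50. MRPL33 was 522 and 551 against 105 and 111, a 4.92-fold difference. All 3 had the higher S. mikatae allele in the hybrid as well: MRPS12 was 3244 and 3989 against 210.0 and 429 (ratio 3.58 ± 0.44), MRPL35 was 1493 and 1544 against 296 and 220.1 (2.57 ± 0.27), and MRPL33 was 799 and 561 against 186 and 151 (1.99 ± 0.31). MRPL22, a uL22 protein, and MRPL50, a bL9 protein, were lower in both kinds of comparison. MRPL22 was 49.6 and 72.9 against 301 and 311 in homozygotes (ratio -2.33 ± 0.32) and 70.0 and 61.4 against 439 and 379 in the hybrid (-2.62 ± 0.26). MRPL50 was 44.5 and 54.4 against 138 and 153 in homozygotes (-1.54 ± 0.30) and 56.3 and 59.9 against 248 and 200.3 in the hybrid (-1.92 ± 0.28). MRPL32 (bL32) was 60.6 and 36.8 in S. mikatae and 486 and 286 in S. cerevisiae, a ratio of -2.95 ± 0.45.

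Between the alleles of the S. mikatae hybrid 4 genes had the higher and 7 the lower S. mikatae allele, and 44 did not pass, where 15.9% of all 4524 genes passed, 7.82% higher and 8.07% lower. The median was -0.24, against -0.04 over all genes. With the hybrid library as a block none passed by limma, and none of all genes did, while 19 of the 55 had an unadjusted p under 0.05, close to the 33.9% of all genes. RSM19 was 1331 and 1834 from the S. mikatae allele and 262 and 302 from the S. cerevisiae allele, a ratio of 2.47 ± 0.28. MRPL4 (uL29), near the exit of the peptide tunnel, was 82.2 and 49.4 against 268 and 348, a ratio of -2.24 ± 0.38. No gene passed the interaction test by limma, where 11 of the 55 had an unadjusted p under 0.05 (14.0% of all genes). Of all genes 0.11% passed (0.022% higher and 0.0879% lower). Against the S. cerevisiae homozygotes of the same pair, 46 of the 55 genes had the higher ratio in homozygotes, against 45.3% of all genes. The median difference of ratios was 0.71, against -0.10. With all 6 S. cerevisiae homozygote libraries as the reference it was 0.47, against -0.15. With the libraries of the S. paradoxus pair the median ratio of homozygotes was -0.38, not above the allele median of -0.24. In MRPL6, which did not pass, 1 of the 2 replicates stood far from the other in both kinds of sample: it was 8515 and 627 in the S. mikatae homozygotes and 9343 and 311 from the S. mikatae allele.

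In S. paradoxus, the species closest to S. cerevisiae, 3 genes were higher and 6 lower in the homozygote and 46 did not pass, where 19.9% of all 4583 genes passed, 8.38% higher and 11.5% lower. The median ratio was -0.34, against -0.20 over all genes. This split depended on the scaling and on the reference. It was 7 higher and 3 lower with scaling by the trimmed mean of log ratios (TMM), which moved the median of all genes to 0.01 (916 of all genes passed), and 1 higher and 10 lower with scaling to the total, which moved it to -0.46 (1019 passed). With the S. cerevisiae libraries of the S. mikatae or of the S. bayanus pair 4 genes were higher and none lower, where 8.75% and 9.64% of all genes passed, with medians of 0.52 and 0.51, so that the median changed sign. In both, the share of the 55 genes was below that of all genes. MRPL27 alone passed with each of the 3 references. None of the 55 genes, and none of all genes, passed by limma without any 1 of the 4 libraries, where 8 to 25 had an unadjusted p under 0.05, against 23.9% to 41.6% of all genes.

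MRPL27 was 444 and 374 in S. paradoxus and 80.4 and 114 in S. cerevisiae, a ratio of 2.08 ± 0.32 (adjusted p of 0.028 by limma). MRPL37 (mL54) was 117 and 256 against 802 and 789.5, the lowest ratio among the genes that passed, at -2.19 ± 0.46. MRPL32 had a lower ratio, -3.15 ± 1.03, without passing, and its S. cerevisiae libraries were far apart (6234 and 900.1, against 367 and 192 in S. paradoxus). MRPS16 was 103 and 71.6 against 252 and 271, RSM19 was 611 and 503 against 1592 and 1552, and MRP1 was 311 and 329 against 776 and 894. These 3 small-subunit genes had ratios of -1.59 ± 0.32, -1.50 ± 0.27 and -1.38 ± 0.26, and their 2 groups did not overlap. In the other 4 S. cerevisiae homozygote libraries RSM19 was between 397 and 477, below both S. paradoxus values. MRPL50 was 129 and 106 against 280.4 and 305, a ratio of -1.31 ± 0.28.

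Between the alleles of the S. paradoxus hybrid 2 genes passed, both with the higher S. paradoxus allele, and 53 did not, where 4.98% of all 4495 genes passed, 2.42% higher and 2.56% lower. MRPL27 was 423 and 458 from the S. paradoxus allele and 86.5 and 41.1 from the S. cerevisiae allele, a ratio of 2.86 ± 0.45 (adjusted p of 0.048 by limma). MRPL33 was 557 and 658 against 165 and 172, a ratio of 1.84 ± 0.28 (adjusted p of 0.047). The median was -0.14, against 0.02 over all genes. With the library as a block none passed by limma, and none of all genes did, while 18 of the 55 had an unadjusted p under 0.05, against 26.3% of all genes. Taking 1 library size for both alleles moved the median of all genes to 0.22 and that of the 55 genes to 0.07, with 3 genes higher (6.23% of all genes passed). In a fit over all hybrids, the median of the 55 genes was -0.16 without hybrid replicate 1 and -0.07 without replicate 2. The medians of all genes were 0.03 and 0.02. In neither fit did both MRPL27 and MRPL33 pass. No gene passed the interaction test by limma, where 7 had an unadjusted p under 0.05 (20.2% of all genes) and 0.831% of all genes passed (0.284% higher and 0.547% lower). Single libraries stood apart in 2 genes of this hybrid. MRPL13 (mL50) was 22240 and 3712 from the S. cerevisiae allele and 296 and 588 from the S. paradoxus allele, and MRPS28 (uS15) was 782 and 9644 from the S. paradoxus allele.

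Few genes differed in the same direction in all 3 species. MRPL27 was higher than in S. cerevisiae in the homozygotes of all 3, with ratios of 2.08 in S. paradoxus, 2.59 in S. mikatae and 3.59 in S. bayanus. In the S. mikatae homozygotes it was 211 and 221 against 22.7 and 54.1. From the alleles it passed in S. paradoxus and S. bayanus, and in the S. mikatae hybrid it was 324 and 278 against 131 and 62.4, without passing. MRPL27 was also the gene with the lowest median level of the 55 in S. cerevisiae. MRPL33 had the higher other allele in all 3 hybrids, with ratios of 1.84, 1.99 and 1.94, of which only that of S. bayanus passed with the library as a block. It also passed as higher in homozygotes of S. bayanus and of S. mikatae, while in those of S. paradoxus it was 611 and 614 against 466 and 190.3, without passing. MRPS12 passed in both kinds of comparison in S. mikatae and S. bayanus, and in S. paradoxus it was 1287 and 812 against 493 and 492 in homozygotes and 1048 and 1886 against 426 and 346 in the hybrid, neither of which passed. In MRPL27 and MRPS12 every value of the other 3 species exceeded every S. cerevisiae value. MRPL50 went in opposite directions, each against the S. cerevisiae libraries of its own pair. It was lower in S. paradoxus and S. mikatae and higher in S. bayanus, where it was 375 and 283 against 143 and 139. The reference differed, at 280.4 and 305 in the S. paradoxus pair and 138 and 153 in the S. mikatae pair. S. bayanus overlapped the libraries of the S. paradoxus pair, and with either other reference no gene of the 55 passed as lower in S. paradoxus. Across the 55 genes the ratios of homozygotes and of alleles correlated with r of 0.67 in S. paradoxus, 0.75 in S. mikatae and 0.75 in S. bayanus, against 0.56, 0.70 and 0.76 over all genes in that order, as a description over genes of the same libraries.

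**Figure D5:**
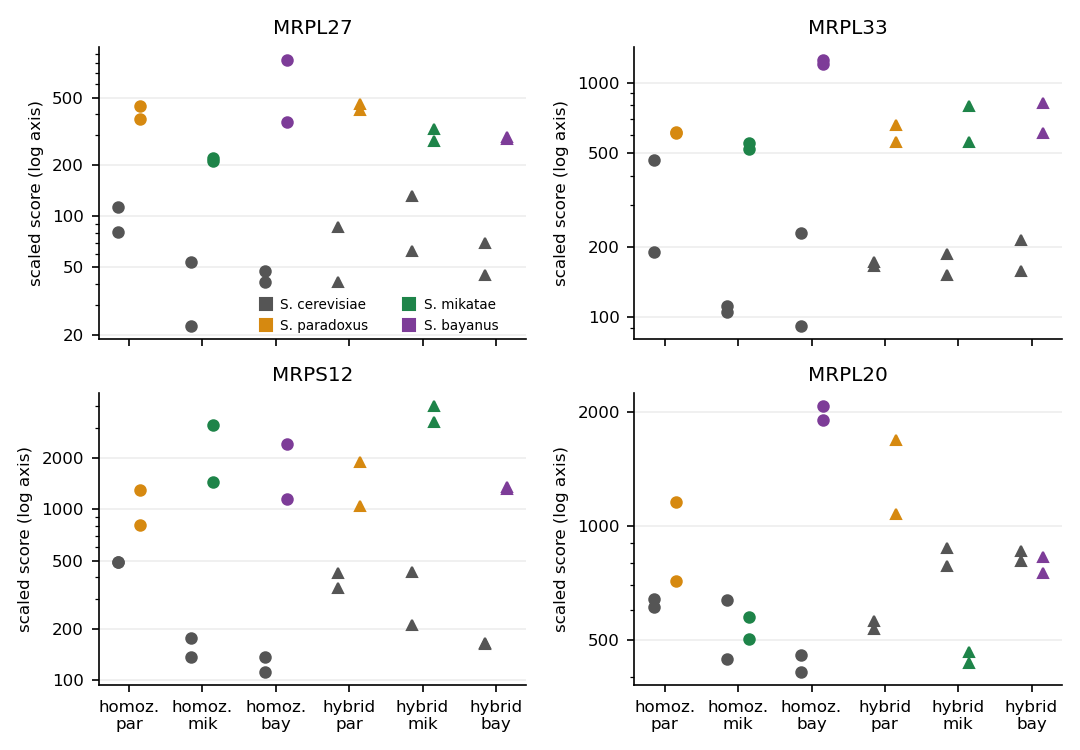
Scaled scores (log axis) of MRPL27, MRPL33, MRPS12 and MRPL20 in each homozygote library (circles) and for each allele of each hybrid library (triangles), by pair of species (par, S. paradoxus; mik, S. mikatae; bay, S. bayanus). S. cerevisiae (grey) is lowest throughout for MRPL27 and MRPS12, whereas MRPL20 differs between the S. bayanus homozygotes (2071 and 1910) and S. cerevisiae homozygotes (456 and 412), with alleles at 753 and 828 against 807 and 858.

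Other genes of mitochondrial gene expression gave a mixed account. In the S. bayanus homozygote 18.4% of all genes were higher and 16.2% lower. Of 17 further mitoribosomal proteins not in the list of 58, 9 were higher and none lower in the S. bayanus homozygote, with a median ratio of 1.58. Of 7 translation factors tested 4 were higher, TUF1, the elongation factor that delivers aminoacyl-tRNA, among them at 2.13 ± 0.23, and of 13 mitochondrial aminoacyl-tRNA synthetases 6 were higher and none lower, with a median of 1.27. RTC6 (bL36) was 1873 and 2451 in S. bayanus and 118 and 128 in S. cerevisiae, and MSF1, the phenylalanyl-tRNA synthetase, was 840 and 1305 against 83.5 and 60.9. Of 15 translational activators and insertion factors 4 were higher and 2 lower (26.7% and 13.3%). Of 12 genes of mitochondrial RNA processing and ribosome assembly 2 were higher and 2 lower (16.7% each), with a median of -0.57. The shares of these 12 genes are near those of all genes. Cytosolic ribosomal proteins (10 higher and 8 lower of 106, median -0.04) and the respiratory complexes (11 higher and 9 lower of 53, median -0.26) had medians near or below 0 in S. bayanus. For the cytosolic proteins the shares of 9.43% and 7.55% were below those of all genes, and for the complexes they were 20.8% and 17.0%. Genes with the Puf3 motif other than the 55 were higher in 23.0% and lower in 13.8% of 734 cases, with a median of 0.29. Without the mitochondrial lists these values were 20.9%, 14.7% and 0.22 over 654 genes, and genes without the motif were higher in 16.8% and lower in 16.9% of 3777, with a median of -0.05.

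Over the same 5 lists together, 5 of 64 genes were higher and 3 lower in the S. mikatae homozygote and none higher and 5 lower in the S. paradoxus homozygote. These shares are below those of all genes in the same comparisons, which were 8.25% higher and 11.5% lower in S. mikatae and 8.38% and 11.5% in S. paradoxus. NAM2, the leucyl-tRNA synthetase that also takes part in splicing of mitochondrial introns, was 1391 and 434 in S. mikatae and 72.3 and 73.6 in S. cerevisiae. MSS116, a helicase of mitochondrial intron splicing, was 1053 and 604 against 9827 and 4663. AEP1, needed for translation of the ATP synthase subunit encoded by the mitochondrial gene OLI1, was 0.795 and 2.04 in S. paradoxus and 352 and 350.1 in S. cerevisiae, and its S. paradoxus allele in the hybrid was 3.31 and 7.88 against 183 and 274. MSK1, the lysyl-tRNA synthetase, was 46.1 and 48.4 in S. paradoxus against 325 and 345. PUF3 itself passed in none of the 9 tests, and it was 805 and 2696 in the S. bayanus homozygotes against 1019 and 595 in S. cerevisiae. HAP4, the regulated subunit of the activator of respiratory genes, was between 374 and 2258 in all 12 homozygote libraries and between 0 and 186 for both alleles of all 6 hybrid libraries. The other regulators listed, PUF3, HAP2, HAP3, HAP5 and SFP1, overlapped between the homozygote libraries and the hybrid alleles. The hybrids also differ from the homozygotes in strain and markers, and the part of HAP4 in the levels of the 55 genes was not tested.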

How the data were processed

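Transcript ends of 18 libraries of log-phase yeast were analysed as 24 columns, since each hybrid library holds both alleles. The deposited scores are read numbers that the authors obtained with CASAVA 1.7 and Bowtie 0.12.7. They trimmed poly-T, kept reads mapping uniquely within a pair of genomes, removed internally primed reads, weighted reads for GC content and summed them by strand from 50 bases before to 500 after each gene, with neighbours trimmed. As weighted sums the scores are not plain counts, so no count model or counting interval was used, and reads that map to both genomes of a pair are missing, which can differ between genes. The labels do not name the pair of each S. cerevisiae homozygote library, which was taken from the genomes it was counted against.

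Scores were divided by the column's upper quartile (quantile 0.75). Genes with a mean of at least 10 over the columns compared were tested with limma 3.58.1 (R 4.3.3, two-sided, with a trend of the variance on the mean) after adding 1 and taking log2, with Benjamini-Hochberg adjustment over all genes tested and a threshold of 0.05. The fits were also run on simulated data, with changes in homozygotes larger than most ratios reported here and none in the alleles. The power to find ratios of the reported sizes was not tested. Genes named are the 6 largest ratios past the threshold in each comparison, those that passed in both kinds of comparison or in all 3 species, and those that passed the interaction; of the other lists, the 2 largest for each species. TUF1, PUF3, HAP4 and the genes with a single high library were named after their values were seen. The members and lists were chosen with earlier results of these data known. Alternatives were TMM and total scaling, other minimums and constants, a pooled spread, blocks, other references and left-out libraries; the other pairs' reference libraries were added after seeing the data. Alleles of a hybrid library share a culture and are paired; their replicate differences correlated with r of 0.06, 0.02 and 0.03 over all genes for the S. paradoxus, the S. mikatae and the S. bayanus hybrid.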

Additional observations from a re-analysis of the deposited data

Results flagged for a closer look

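Among the 55 genes in the 6 S. cerevisiae homozygote libraries, 1 library stood far from the other 5 in 6 genes by Dixon's criterion. The criterion's rate of about 1 of 20 genes by chance assumes normal values from 1 group. The scaled scores were used without taking log2, and the pairs differed in level, so that rate does not apply here. MRPL32 was 6234 in replicate 1, MRPL6 was 942 in replicate 1 and MRPL33 was 466 in replicate 1. MRPS28 was 3492 in replicate 2, MRPS35 was 499.6 in replicate 2 and RSM22 was 221 in replicate 2. All 6 values lie in the libraries of the S. paradoxus pair and are the highest of their gene.

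The ratio of S. bayanus to S. cerevisiae was higher in homozygotes than between alleles in 9 genes by the interaction test, with log2 differences of 3.04 for MRPL31, 2.59 for MRPS35, 2.50 for MRPL15, 2.47 for MRPL9, 2.27 for MRPL20, 2.25 for MRPL3, 2.23 for MRPL38, 2.13 for MRP1 and 1.86 for MRPL24.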

How the results depend on the processing

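In S. bayanus homozygotes the number of genes past the threshold stayed between 25 and 36 under all alternatives but leaving out a library. For alleles, the fits without a hybrid library were made over all hybrids, which lends the lone library the spread of the others. The homozygote and interaction fits without a library did not borrow spread in this way. The allele counts below are therefore not comparable with those of homozygotes or interactions, or with the allele counts from both libraries. Without 1 library the counts were 0 to 18 in S. bayanus homozygotes, 0 to 0 in S. mikatae and in S. paradoxus homozygotes, 4 to 6, 9 to 9 and 5 to 9 for S. bayanus, S. mikatae and S. paradoxus alleles, and 0 to 4 for the S. bayanus interaction.

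A pooled spread gave 15 genes in S. paradoxus homozygotes (29.4% of all genes passed) and 16 and 17 for S. paradoxus and S. mikatae alleles (17.2% and 26.7%). For the interactions it gave 3 in S. paradoxus (7.21%), 2 in S. mikatae (2.2%) and 20 in S. bayanus (2.82%). All 6 S. cerevisiae libraries as the reference gave 14 in S. paradoxus homozygotes (24.8%), and the libraries of either other pair gave 4 (8.75% and 9.64%). For S. paradoxus alleles, scaling to the total gave 1 (4.28%) and a minimum of 50 gave 1 (3.93%).

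The hybrid library as a replicate block gave 0, 0 and 10 genes for S. paradoxus, S. mikatae and S. bayanus alleles and 1 for the S. bayanus interaction, and the other interactions stayed at 0. Homozygotes share only a replicate number, and only S. paradoxus shares it with its reference (r of replicate differences 0.01); that block gave 0 genes by limma, where 20 had an unadjusted p under 0.05 (35.4% of all genes). No ratio that had passed changed sign under any scaling, minimum, constant or left-out library, and ratios that had not passed were not followed. With 2 libraries a group, differences smaller than the spread between 2 cultures could not be shown.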
